A study of Saccharomyces cerevisiae with 18 samples.

Results

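The large (60S) subunit of the yeast ribosome is built by a set of trans-acting proteins that bind the precursor rRNA and leave again before translation begins. Here 49 genes for such large subunit assembly factors were followed in RNA-seq data from *Saccharomyces cerevisiae* with wild-type or mutant Spn1. They were taken by gene symbol, through the systematic names of the R64 assembly, from nucleolar, nucleoplasmic, export and cytoplasmic steps of the pathway, and all 49 were found among the 6577 genes of the deposited expression matrix. *MDN1*, which has *REA1* as its primary symbol in the annotation, was included as the longest of them. All 49 passed the filter on low values.

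Assembly starts in the nucleolus, where RNA helicases, methyltransferases and scaffold proteins fold and modify the newly made rRNA. GTPases and AAA ATPases then drive the particle through the nucleoplasm by pulling earlier factors off it, and export adaptors carry it to the cytoplasm, where the last factors are released and the subunit becomes able to translate. In budding yeast the genes for these proteins, together with those for small subunit assembly and RNA polymerase I, are known as a co-regulated set, the ribosome biogenesis regulon, whose promoters often hold a PAC and an RRPE element.

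Poly-A RNA was sequenced from 3 cultures of each of 3 genotypes, which gave 9 libraries. Spn1 is a histone chaperone that travels with RNA polymerase II. The study set its full-length form (WT) beside *spn1* K192N, which carries a substitution in the conserved core, and *spn1* 141-305, which retains the core and lacks both ends of the protein. The labels give both mutants as BY4741 spn1delta::LEU2, with plasmid pCR312 for *spn1* K192N and pAA344 for *spn1* 141-305. For WT the labels give the parental genotype MATa his3delta1 leu2delta0 met15delta0 ura3delta0, whereas the methods of the study describe the same chromosomal deletion covered by a *HIS3* plasmid with wild-type *SPN1*, so that all 3 alleles were expressed from a plasmid under the native promoter. Cells were grown in rich medium to mid-exponential phase, and fission yeast (*Schizosaccharomyces pombe*) cells were added as a spike-in at 1 to 10 *S. cerevisiae* cells. The cell line labels give each of the 9 libraries a different BY name, whereas the study lists BY4741 as the background of all its strains. Those labels were not used. Nothing else in the labels separates the cultures further, so the p-values measure the spread between these cultures.

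The matrix holds rlog values, a log2 scale of DESeq2 that shrinks differences between libraries, scaled on the spike-in. Counts are not part of it, and library depths are therefore not known here. *SPN1*, the mutated gene, stood at rlog values of 12.27, 12.95 and 11.66 in WT libraries 1 to 3, at 13.62, 12.55 and 12.28 in *spn1* K192N and at 11.06, 11.07 and 11.79 in *spn1* 141-305. These values do not check the labels, because each strain carries an *SPN1* allele, and the WT and *spn1* 141-305 ranges overlap. The fitted difference of *spn1* 141-305 was −0.99 from WT (limma adjusted p = 0.00638). From *spn1* K192N it was −1.51, without overlap (limma adjusted p = 0.000531). The *spn1* 141-305 allele holds residues 141 to 305 only, whereas reads were counted on the whole *SPN1* gene (1233 bp). In both of these differences, a shorter counted sequence and less *SPN1* RNA cannot be told apart. The difference of *spn1* K192N from WT, 0.52, did not pass (limma adjusted p = 0.192). Over the 5954 tested genes the median fitted difference from WT was −0.08 in *spn1* K192N and −0.09 in *spn1* 141-305, so a shift shared by most genes lies under the values of any gene group. In these bulk samples, fewer cells against the spike-in and less RNA per cell cannot be told apart.

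The promoters of the assembly factors are shown first, since they are what these genes share in sequence. In windows from 250 bases before to 50 bases after the annotated start, the PAC core GATGAG was present on either strand in 44 of 49 genes (89.8%), against 20.4% of 6001 protein-coding promoters read in the same way. The RRPE core AAAAATTT was present in 45 of 49 (91.8%), against 14.1% of all promoters. Both cores were found in 40 genes (81.6%), against 5.63%, and every one of the 49 had at least 1 of them, against 28.9%. A run of AAAAATTTTT holds 2 overlapping matches of the RRPE core and a run of GATGAGATGAG 2 of the PAC core, whereas the letters of one core cannot overlap those of the other. A match describes the letters only. The following stretches were read from the RefSeq R64 genome on the strand of the gene, with matched letters in capitals. *DBP7* (chrXI:487500-487527, minus strand), *DRS1* (chrXII:131585-131626, plus), *MDN1* (chrXII:363932-363966, minus), *NOP4* (chrXVI:469794-469835, plus) and *RRS1* (chrXV:868197-868235, plus) have both cores and changed in the tests given later. *RPF1* (chrVIII:281379-281407, plus) also has both cores and was nearest to WT. *DBP10* (chrIV:394076-394093, plus) and *SPB1* (chrIII:31309-31330, plus) have 1 kind of element only and changed in those tests too.
DBP7: tacttgAAAAATTTgcGATGAGcttagg
DRS1: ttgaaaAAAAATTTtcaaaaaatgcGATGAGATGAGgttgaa
MDN1: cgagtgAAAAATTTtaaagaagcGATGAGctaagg
NOP4: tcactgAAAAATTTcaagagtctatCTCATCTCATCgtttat
RRS1: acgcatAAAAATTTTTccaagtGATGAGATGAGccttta
RPF1: aaagtaAAATTTTTagcGATGAGatgtaa
DBP10: tcaagcGATGAGatgaaa
SPB1: tgtctgAAAAATTTTTtgcgat

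In *DBP7*, *DRS1*, *MDN1*, *NOP4*, *RRS1* and *RPF1* the RRPE core lay upstream of the PAC core, with the PAC core on the opposite strand in *NOP4* (CTCATC) and the RRPE core on it in *RPF1* (AAATTTTT). Taking the closest pair in each gene, RRPE lay upstream in 34 of the 40 genes with both cores (85.0%), against 64.8% of the 338 such promoters in the genome. The median distance between the centres of the closest pair was 16.5 bases, against 23.0 bases in the genome. The 78 PAC matches had a median position of −119 and the 62 RRPE matches one of −145.5, where −1 is the base before the start. The 4 genes with the PAC core alone were *DBP6*, *DBP10*, *MAK5* and *NOC3*, and the 5 with the RRPE core alone were *SPB1*, *NSA1*, *NOP53*, *RIX1* and *IPI1*.

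**Figure D1:**
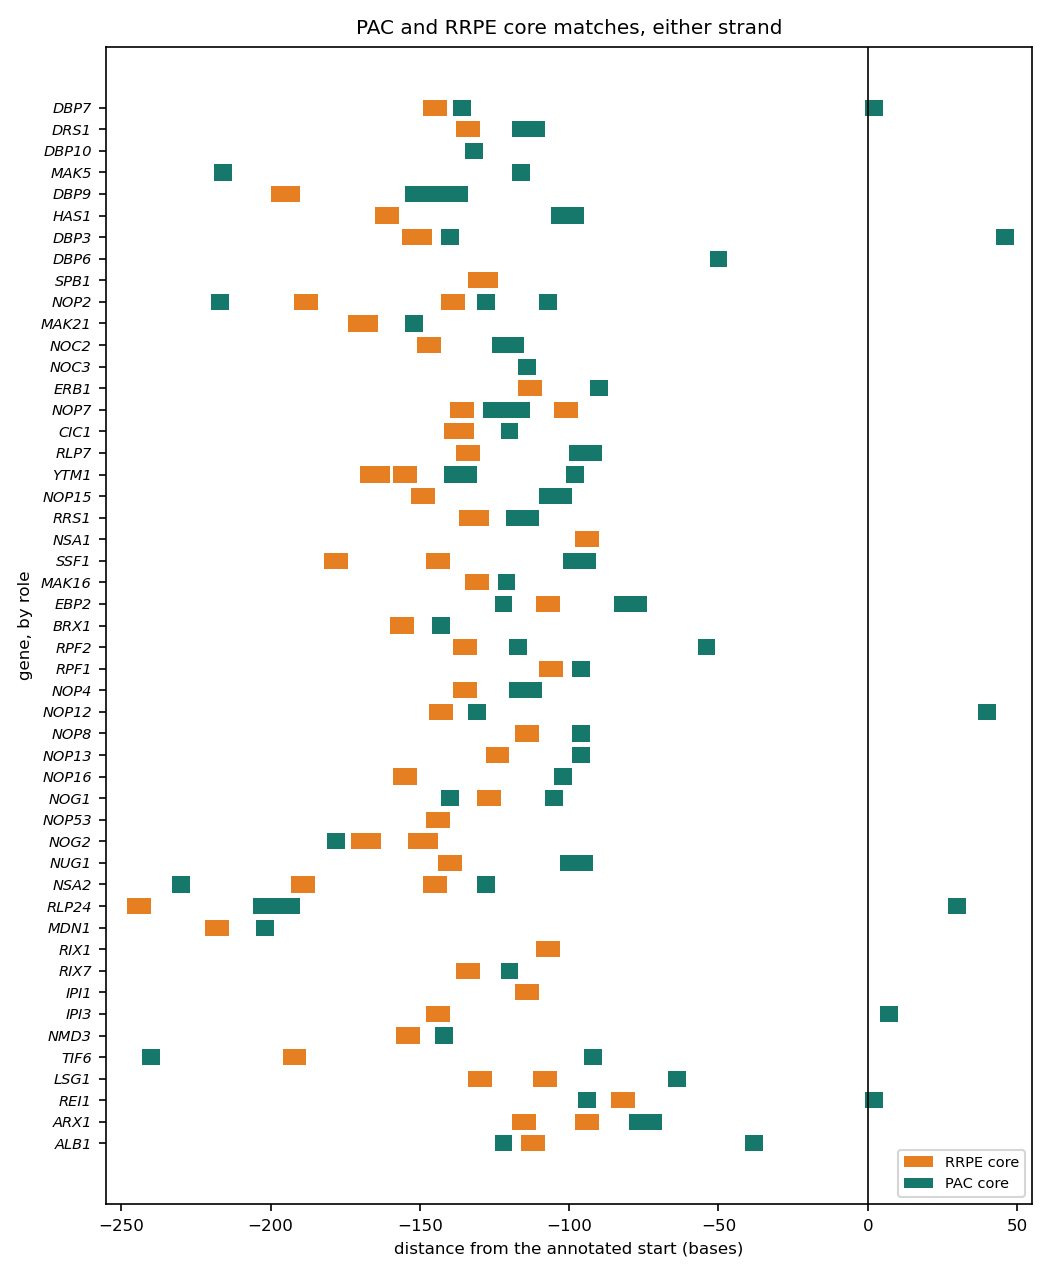
Positions of RRPE core (orange) and PAC core (green) matches on either strand in the 49 promoters, in bases from the annotated start of each gene on the horizontal axis, with 1 row per gene ordered by role. Most matches fall between 200 and 50 bases before the start (64 of 78 PAC and 60 of 62 RRPE matches), and 34 of the 40 genes with both have RRPE upstream of the nearest PAC.

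All 49 assembly factors had a lower mean in *spn1* 141-305 than in WT, as did 5140 of the 5954 tested genes. The fitted differences of the 49 ran from −0.32 to −0.03 on the log2 (rlog) scale, with a median of −0.15 and standard errors of 0.067 to 0.090. In 41 of the 49 the difference lay below the all-gene median of −0.09. In limma, with Benjamini-Hochberg adjustment over all tested genes, 10 genes fell at an adjusted p below 0.05 (20.4%) and 0 rose. The background over all tested genes was 18.8% lower and 0.453% higher, so the share of assembly factors called was close to that of genes at large. The 10 that fell were *DBP7*, *MDN1*, *DRS1*, *DBP10*, *SPB1*, *MAK21*, *ERB1*, *NOP4*, *RRS1* and *MAK5*. For 37 of the 49 the 3 *spn1* 141-305 libraries lay below all 3 WT libraries (75.5%), against 45.0% of all tested genes, and for 0 they lay above (background 1.60%). After the libraries were centred on the median deviation of the tested genes, this count was 19 of the 49, against 20% of all genes. The counts by role given further on use the values as deposited and stand beside the same shares of all genes, 18.8% called lower and 45.0% without overlap.

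These calls rest on single libraries to a large degree. WT library 1 was the highest of the WT libraries for all 49 genes and the highest of all 9 libraries for 45. The order was not particular to these genes. The median deviation of all tested genes was 0.113, 0.051 and 0.018 in WT libraries 1 to 3, against 0.181, 0.074 and 0.021 for the 49. Without WT library 1, 0 of the 49 were called lower in *spn1* 141-305 by limma. Of the 49, 11 then had an unadjusted p below 0.05, although 46 still had a difference below 0. Left out in turn, WT library 2 gave 3 calls, *spn1* 141-305 libraries 1, 2 and 3 gave 1, 4 and 3, and *spn1* K192N library 1 gave 24, at backgrounds of 4.67% to 34.2% of all genes. The centring, which removed the shift common to the tested genes and moved their median from −0.09 to 0.01, left 6 of the 10 called (*DBP7*, *MDN1*, *DRS1*, *DBP10*, *SPB1* and *MAK21*; background 8.3%).

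**Figure D2:**
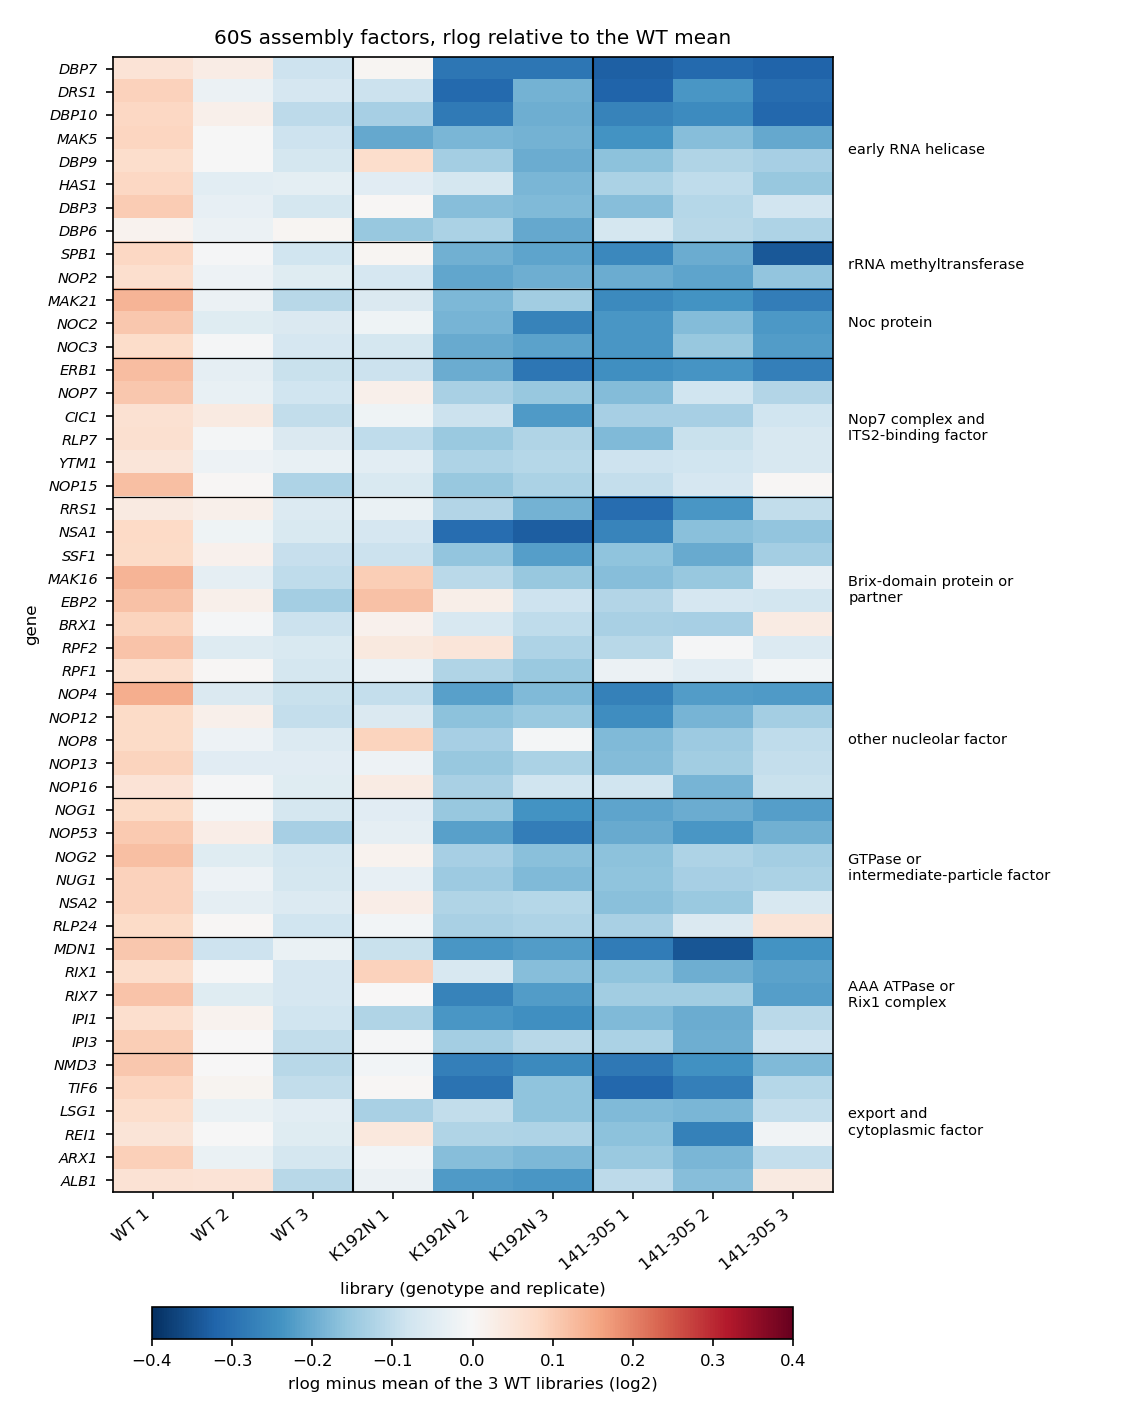
Heat map of the rlog value of each of the 49 genes (rows, grouped by role) in each of the 9 libraries (columns), as the difference from the mean of the 3 WT libraries on the log2 scale (blue lower, red higher). WT 1 is the highest library for 45 genes, *spn1* K192N 1 lies close to WT, and the 3 *spn1* 141-305 libraries are blue for most genes.

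**Figure D3:**
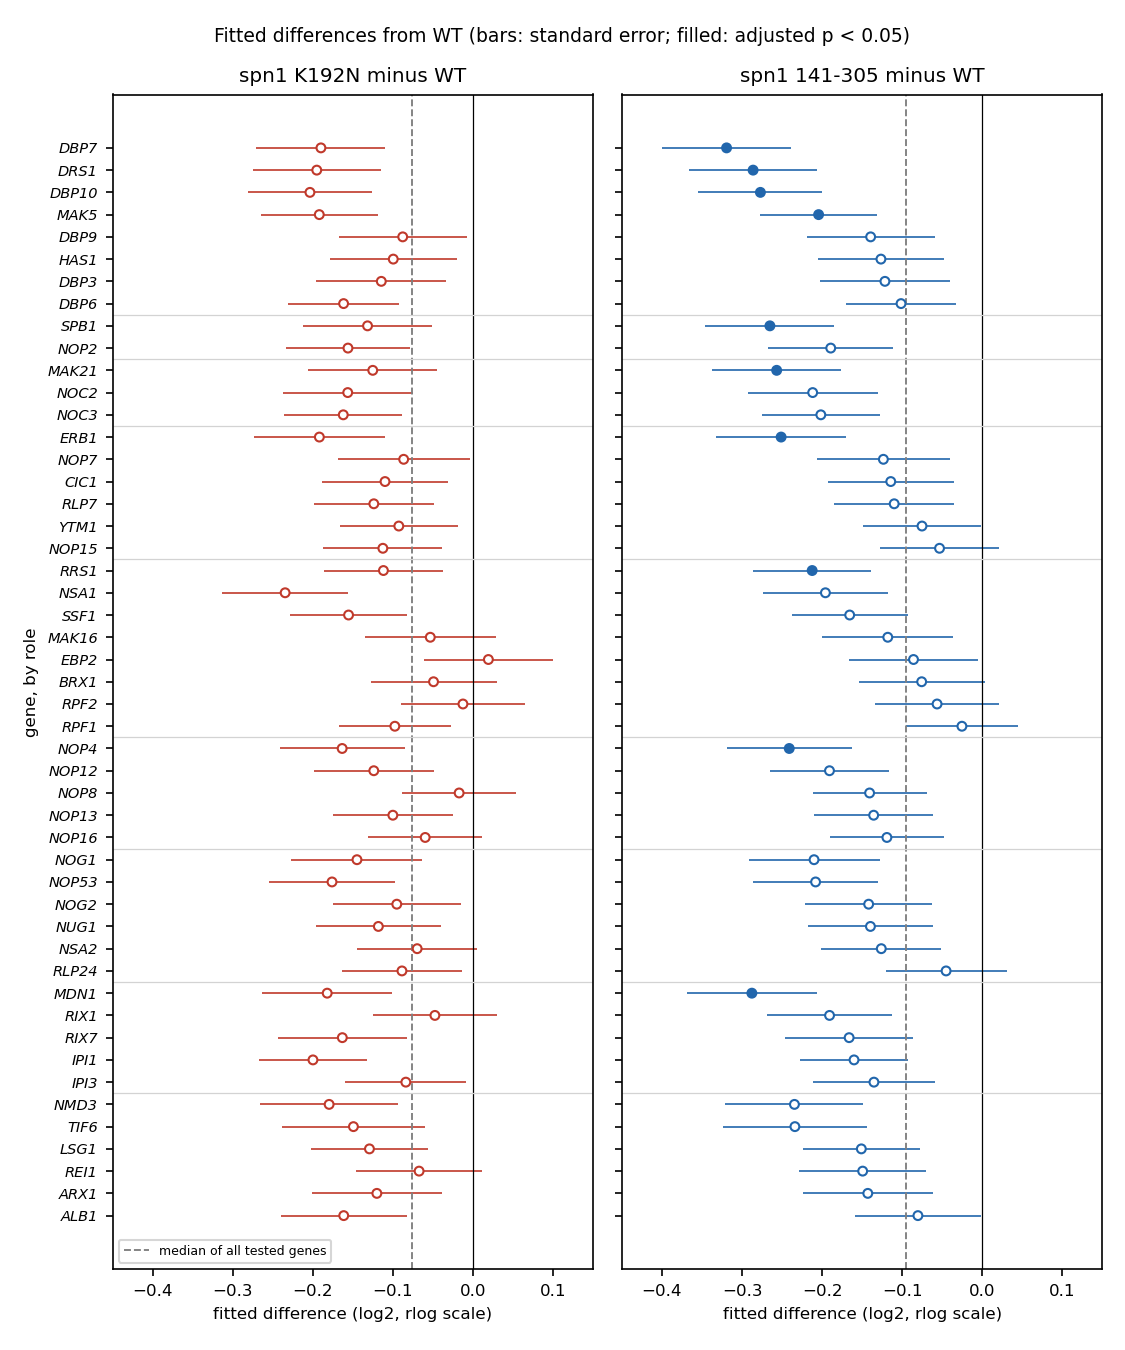
Fitted log2 difference from WT (points) with its standard error (bars) for each of the 49 genes, in *spn1* K192N on the left and *spn1* 141-305 on the right; filled points have an adjusted p below 0.05 and dashed lines mark the median of all tested genes. No gene is filled on the left and 10 are filled on the right, where differences run from −0.32 in *DBP7* to −0.03 in *RPF1*.

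Among the 8 DEAD-box RNA helicases of the nucleolar particles, 4 fell in *spn1* 141-305 and all 8 had *spn1* 141-305 libraries below every WT library, with a median difference of −0.17. *DBP7*, which remodels the young particle, had rlog values of 11.42, 11.39 and 11.28 in WT, 11.37, 11.08 and 11.08 in *spn1* K192N and 11.04, 11.05 and 11.04 in *spn1* 141-305. The *spn1* 141-305 libraries thus lay within 0.02 of each other and below all WT libraries, while *spn1* K192N library 1 reached into the WT range. The fitted difference was −0.32 ± 0.081 (SE, n = 3 per genotype), with an adjusted p of 0.00785 in limma. Converted from the log2 scale, this is a fall of 19.9%. This percentage and those below come from shrunken rlog differences and include the shift shared by most genes, so they are not measured changes in RNA level. *DBP7* was called in 8 of the 9 fits that left out a library.

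*DRS1*, a helicase of the later nucleolar particles, stood at 12.31, 12.19 and 12.15 in WT, 12.13, 11.90 and 12.03 in *spn1* K192N and 11.89, 11.98 and 11.91 in *spn1* 141-305. All 6 mutant libraries lay below the lowest WT library. In *spn1* 141-305 it fell by 18% (difference −0.29, SE 0.080, adjusted p = 0.015, limma). *DBP10* showed the same order, with 12.23, 12.17 and 12.05 in WT, 12.02, 11.87 and 11.95 in *spn1* K192N and 11.88, 11.90 and 11.84 in *spn1* 141-305, a difference of −0.28 (SE 0.077, limma adjusted p = 0.015). *MAK5*, at 11.56, 11.47 and 11.38 in WT, was nearly level between the mutants, with 11.26, 11.29 and 11.28 in *spn1* K192N and 11.23, 11.30 and 11.26 in *spn1* 141-305. Its difference of −0.20 had an adjusted p of 0.047 in limma, and it was called in 3 of the 9 fits that left out a library.

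*DBP6*, which acts beside *DBP7* in the first particles, had the smallest difference of the helicases in *spn1* 141-305. It stood at 11.02, 10.99 and 11.02 in WT, 10.86, 10.88 and 10.80 in *spn1* K192N and 10.94, 10.90 and 10.89 in *spn1* 141-305. The genotypes did not overlap, and *DBP6* was the only one of the 49 with all *spn1* 141-305 libraries above all *spn1* K192N libraries. Neither difference from WT passed the test (−0.10 in *spn1* 141-305, adjusted p = 0.291; −0.16 in *spn1* K192N, adjusted p = 0.156; limma). *DBP3*, *DBP9* and *HAS1* had differences between −0.14 and −0.12 in *spn1* 141-305 and were not called.

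The rRNA methyltransferases *SPB1* and *NOP2* both had *spn1* 141-305 libraries below every WT library. *SPB1*, which methylates a nucleotide of the peptidyl transferase centre, had 12.09, 12.00 and 11.93 in WT, 12.02, 11.82 and 11.80 in *spn1* K192N and 11.75, 11.81 and 11.67 in *spn1* 141-305. It fell by 16.8% in *spn1* 141-305 (difference −0.27, SE 0.080, limma adjusted p = 0.023), and *spn1* K192N library 1 lay inside the WT range. *NOP2*, a cytosine methyltransferase of the large rRNA, stood at 12.72, 12.63 and 12.60 in WT against 12.45, 12.44 and 12.49 in *spn1* 141-305 and 12.58, 12.44 and 12.45 in *spn1* K192N. Its difference of −0.19 in *spn1* 141-305 did not pass (limma adjusted p = 0.081).

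The 3 Noc proteins, which form scaffold pairs on the particle, had *spn1* 141-305 differences of −0.26 (*MAK21*, also called Noc1), −0.21 (*NOC2*) and −0.20 (*NOC3*), and *MAK21* was the one called. *MAK21* had 12.72, 12.56 and 12.47 in WT, 12.53, 12.40 and 12.45 in *spn1* K192N and 12.33, 12.34 and 12.31 in *spn1* 141-305, with an adjusted p of 0.027 in limma. The *spn1* 141-305 values were below all others, and the *spn1* K192N values overlapped WT. *NOC3*, the smallest of the 3 differences, stood at 11.34, 11.26 and 11.20 in WT, 11.19, 11.06 and 11.05 in *spn1* K192N and 11.03, 11.12 and 11.04 in *spn1* 141-305. The groups did not overlap with WT, but the adjusted p of 0.053 lay just past the threshold in limma.

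In the Nop7 complex and the factors that bind the internal transcribed spacer ITS2, *ERB1* fell in *spn1* 141-305 and the other 5 genes had differences from −0.12 to −0.05. *ERB1*, the scaffold between Nop7 and Ytm1, had 12.78, 12.62 and 12.57 in WT, 12.57, 12.46 and 12.37 in *spn1* K192N and 12.41, 12.42 and 12.39 in *spn1* 141-305 (difference −0.25, SE 0.082, limma adjusted p = 0.032). Its partners *NOP7* and *YTM1*, at −0.12 and −0.08, were not called. *NOP15*, an RNA-binding protein on ITS2, stood at 11.04, 10.92 and 10.80 in WT, 10.86, 10.77 and 10.79 in *spn1* K192N and 10.82, 10.85 and 10.92 in *spn1* 141-305. The groups overlapped, and the difference of −0.05 in *spn1* 141-305 became 0.048 after centring of the libraries.

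Of the 8 Brix-domain proteins and their partners, *RRS1* was called in *spn1* 141-305. *RRS1*, which with *RPF2* brings the 5S rRNA particle into the subunit, had 10.83, 10.82 and 10.74 in WT, 10.77, 10.68 and 10.61 in *spn1* K192N and 10.49, 10.56 and 10.70 in *spn1* 141-305. The *spn1* 141-305 libraries were spread over 0.21 and all lay below WT, with a difference of −0.21 (SE 0.074, limma adjusted p = 0.043). Its partner *RPF2* had a difference of −0.06. *RPF1*, a partner of *MAK16* and *NSA1* in early particles, had the smallest difference of the 49, with 10.79, 10.73 and 10.65 in WT, 10.70, 10.60 and 10.57 in *spn1* K192N and 10.70, 10.68 and 10.71 in *spn1* 141-305. Its *spn1* 141-305 libraries all lay within the WT range, and its difference of −0.03 (limma adjusted p = 0.817) became 0.076 after centring. *BRX1* and *EBP2*, which bind each other, had differences of −0.08 and −0.09 in *spn1* 141-305 with overlapping groups. *SSF1* (−0.17) has a close paralog, *SSF2*, with which reads could be shared.

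Among the other nucleolar factors, *NOP4*, an RNA-binding protein needed for early processing, fell in *spn1* 141-305. It had 12.04, 11.84 and 11.81 in WT, 11.80, 11.68 and 11.72 in *spn1* K192N and 11.62, 11.67 and 11.67 in *spn1* 141-305, with a difference of −0.24 (SE 0.078, limma adjusted p = 0.032). All mutant libraries lay below all WT libraries, by 0.01 at the closest. *NOP16*, at the other end of this class, stood at 10.72, 10.66 and 10.61 in WT, 10.69, 10.53 and 10.58 in *spn1* K192N and 10.58, 10.47 and 10.57 in *spn1* 141-305. Its *spn1* 141-305 libraries lay below WT, and the difference of −0.12 did not pass (limma adjusted p = 0.230). *NOP8*, *NOP12* and *NOP13* had differences of −0.14, −0.19 and −0.14, with no overlap between *spn1* 141-305 and WT.

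No member of the class of GTPases and intermediate-particle factors was called, and 5 of its 6 genes had *spn1* 141-305 libraries below every WT library. *NOG1*, a GTPase that joins in the nucleolus and stays until the cytoplasm, stood at 13.50, 13.42 and 13.36 in WT, 13.38, 13.28 and 13.19 in *spn1* K192N and 13.21, 13.23 and 13.20 in *spn1* 141-305. The *spn1* 141-305 values lay in a band of 0.02 below both other groups except for *spn1* K192N library 3, and the difference of −0.21 had a limma adjusted p of 0.066. *NOP53*, which connects the particle to the RNA exosome, had the same difference (−0.21, limma adjusted p = 0.059). *NOG2* and *NUG1*, both GTPases, had differences of −0.14, and *NOG2* holds the snoRNA gene *SNR191* in its intron. *RLP24* marked the other end, with 11.28, 11.21 and 11.12 in WT, 11.19, 11.07 and 11.08 in *spn1* K192N and 11.07, 11.14 and 11.25 in *spn1* 141-305. Its *spn1* 141-305 libraries overlapped the WT range, with a difference of −0.05 that became 0.056 after centring.

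*MDN1* encodes the dynein-like AAA ATPase that pulls Ytm1 and Rsa4 off the particle, and at 14733 bp it is the longest of the 5565 tested protein-coding genes. It had 12.93, 12.74 and 12.80 in WT, 12.74, 12.59 and 12.60 in *spn1* K192N and 12.54, 12.48 and 12.58 in *spn1* 141-305. All 3 *spn1* 141-305 libraries lay below every other library, and *spn1* K192N library 1 matched the lowest WT library to 2 decimals while staying below it. In *spn1* 141-305 *MDN1* fell by 18.1% (difference −0.29, SE 0.081, limma adjusted p = 0.015), and it was called in 6 of the 9 fits that left out a library, not in those without WT library 1 or without *spn1* 141-305 library 1 or 2. In *spn1* K192N the difference was −0.18 (limma adjusted p = 0.173), and between the mutants it was −0.11 and did not pass. Despite its length it was not at the extreme of the genome, since 386 protein-coding genes (6.94%) had a lower difference in *spn1* 141-305.

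The other genes of that class were not called. *RIX7*, the AAA ATPase that removes Nsa1, had a difference of −0.17 in *spn1* 141-305. *RIX1*, *IPI1* and *IPI3* form a complex that works with Mdn1, with differences of −0.19, −0.16 and −0.14. *IPI3* stood at 11.50, 11.41 and 11.31 in WT, 11.40, 11.27 and 11.29 in *spn1* K192N and 11.28, 11.21 and 11.32 in *spn1* 141-305, so the groups overlapped. In *spn1* K192N, *RIX1* overlapped WT at −0.05 and its partner *IPI1* lay below WT at −0.20. Neither passed the test, and these genes were not tested against each other.

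Of the 6 export and cytoplasmic factors, 0 were called in *spn1* 141-305. *NMD3*, the adaptor that links the subunit to the export receptor Crm1, had 12.97, 12.86 and 12.75 in WT, 12.85, 12.58 and 12.61 in *spn1* K192N and 12.57, 12.62 and 12.68 in *spn1* 141-305. Its *spn1* 141-305 libraries lay below WT, and the difference of −0.23 had a limma adjusted p of 0.054. *TIF6*, which keeps the subunits apart until the end, also stood at −0.23, with *spn1* 141-305 libraries between 13.14 and 13.34 and WT libraries between 13.36 and 13.54 (limma adjusted p = 0.062). *LSG1*, the GTPase that releases Nmd3, *REI1*, which acts in the release of Arx1, and *ARX1* itself had differences of −0.15, −0.15 and −0.14, and *REI1* overlaps the annotated gene *SLM6*. *ALB1*, the partner of Arx1, stood at 10.87, 10.87 and 10.70 in WT, 10.79, 10.59 and 10.58 in *spn1* K192N and 10.71, 10.64 and 10.85 in *spn1* 141-305. Its groups overlapped, and its difference of −0.08 became 0.021 after centring.

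In *spn1* K192N, 48 of the 49 genes had a mean below WT, as did 4977 of the 5954 tested genes. The median difference of the 49 was −0.12 against −0.08 for all genes, and none of the 49 passed the test. By limma 0 were lower and 0 higher at an adjusted p below 0.05, against backgrounds of 4.80% and 0.403%, and 15 had an unadjusted p below 0.05 (30.6%), against 23.8% of all genes. For 14 of the 49 all *spn1* K192N libraries lay below all WT libraries (28.6%), against 18.8% of all genes, and for 0 they lay above (background 1.44%). *NSA1*, removed from the particle by Rix7, had the largest difference, with 11.35, 11.26 and 11.21 in WT, 11.20, 10.97 and 10.94 in *spn1* K192N and 11.01, 11.10 and 11.12 in *spn1* 141-305. Its *spn1* K192N libraries were below WT, the first by less than 0.02, and the difference of −0.23 had a limma adjusted p of 0.075. *IPI1* followed at an adjusted p of 0.076 (difference −0.20). *EBP2* was the one gene above WT, by 0.02.

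The *spn1* K192N group was split. Library 1 was the highest of its group for 45 of the 49 genes and lay above the lowest WT library for 35, whereas library 3 did so for 2. All tested genes showed the split too, with median deviations of 0.061, −0.047 and −0.062 in *spn1* K192N libraries 1 to 3. Without library 1, 24 of the 49 genes were called lower in *spn1* K192N by limma, at a background of 34.1% of all genes. The median range between the 3 libraries of a genotype was 0.164 in WT, 0.162 in *spn1* K192N and 0.084 in *spn1* 141-305 over the 49 genes. Over all tested genes it was 0.124, 0.169 and 0.090 in the same order. The part of this unequal spread in the unequal number of calls was not tested.

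Both mutant comparisons use the same 3 WT libraries, so their shared direction is not independent. The mutants were therefore also set against each other. The fitted differences of *spn1* 141-305 from *spn1* K192N ran from −0.14 in *RIX1* to 0.08 in *ALB1*, with a median of −0.04 (all genes −0.02). Of the 49, 40 were below 0, against 3773 of the 5954 tested genes. By limma 0 of the 49 were called lower and 0 higher, against backgrounds of 1.28% and 0.621%, and 0 had an unadjusted p below 0.05, against 12.6% of all genes. The smallest adjusted p was 0.476. The libraries did not overlap for 4 genes that were lower in *spn1* 141-305 (background 12.0%) and for *DBP6*, which was higher (background 4.55%). The 10 calls in *spn1* 141-305 beside none in *spn1* K192N are therefore not shown to differ between the mutants.

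Within the assembly factors the difference in *spn1* 141-305 followed gene length. Spearman's rho over the 49 genes was −0.666, and −0.646 without *MDN1*, against −0.585 over the 5565 tested protein-coding genes; in *spn1* K192N it was −0.459 against −0.388. With the mean rlog value in place of length, rho over the 49 was −0.274 in *spn1* 141-305 and −0.0744 in *spn1* K192N. Over the tested protein-coding genes it was −0.444 and −0.436. These are descriptions across genes measured in the same libraries. The assembly factor genes were longer than the rest, with a median of 1557 bp against 1248 bp, and more highly expressed, with a median rlog of 11.55 against 9.42. Of the 16 assembly factors in the longest quartile of genes (at least 1917 bp), 9 were called (56.2%) with a median difference of −0.23, against 45.1% and −0.19 for all genes of that quartile. In the third quartile 0 of 17 were called against 19.4% of all genes, and in the second 0 of 10 against 10.4%. *RRS1*, at 612 bp, was the one called gene outside the longest quartile. It was the 1 called of 6 assembly factors in the shortest quartile, where 4.01% of all genes were called. The other 5 were *TIF6* (738 bp), with the larger difference of −0.23 but not called, *NOP16* (696 bp, −0.12), *ALB1* (528 bp, −0.08), *NOP15* (663 bp, −0.05) and *RLP24* (600 bp, −0.05).

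**Figure D4:**
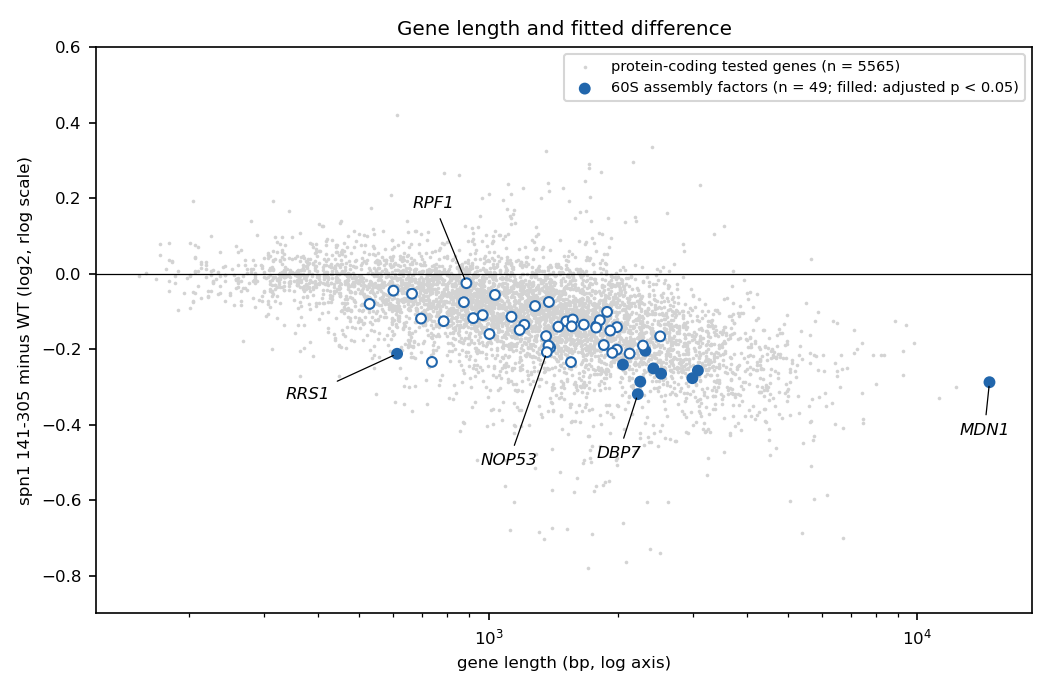
Gene length (horizontal, bp, log axis) against the fitted log2 difference of *spn1* 141-305 from WT (vertical) for the 49 assembly factors (blue; filled where the adjusted p is below 0.05) and the 5565 tested protein-coding genes (grey; 9 lie outside the vertical axis). Differences become more negative with length, 9 of the 10 filled genes are at least 1917 bp long, *RRS1* is the short exception, and *MDN1* lies far to the right at −0.29.

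Called genes were found in each promoter group. Of the 40 genes with both cores 7 were called in *spn1* 141-305, with a median difference of −0.14. Over all tested genes, whatever their promoter, 18.8% were called lower and the median was −0.09. Of the 4 with PAC alone 2 were called (*DBP10* and *MAK5*; median −0.20), and of the 5 with RRPE alone 1 was called (*SPB1*; median −0.20). *RPF1*, nearest to WT, had an RRPE core next to a PAC core as *DBP7* did.

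The order of the genes by abundance was the same at both ends in each genotype. Per kilobase of coding sequence, as the mean rlog minus log2 of the coding length in kilobases, *TIF6* was the highest of the 49 in WT at 13.90 (SD 0.093, n = 3), followed by *NOG1* at 12.47, *HAS1* at 12.29, *NOP7* at 12.25 and *NMD3* at 12.22. *HAS1*, *NOP7* and *NMD3* lay within their SDs of 0.071 to 0.108 of each other. *MDN1* was the lowest at 8.94, below *NOP8* at 9.71 and *IPI1* at 9.89. In both mutants *TIF6* was first and *MDN1* last, and the first 4 genes kept their order.

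Genes of the same and neighbouring pathways, taken as whole lists, gave shares called lower in *spn1* 141-305 between 2.96% and 31.6%. Over all tested genes the share was 18.8% and the median −0.09. Of 41 other 60S assembly genes 9 were lower (22%, median −0.15), of 57 genes of the small subunit processome 18 (31.6%, median −0.19), and of 7 RNA polymerase I genes 2, *RPA190* and *RPA135* (median −0.08). Of 135 tested genes for cytosolic ribosomal proteins 4 were lower (2.96%, median −0.08), beside 10 of 49 for the assembly factors (20.4%, median −0.15). In *spn1* K192N the counts were 3 of 41, 1 of 57, 0 of 7 and 1 of 135, against 4.80% of all tested genes. The PAC core was in 91.2% of processome promoters and 85.4% of the other 60S promoters but in 10.9% of ribosomal protein promoters, and the RRPE core in 84.2%, 58.5% and 13.1%. No test of these lists against each other was made, and the lists were not matched for gene length. Over protein-coding genes the share called in *spn1* 141-305 ran from 4.01% in the shortest quartile to 45.1% in the longest.

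**Figure D5:**
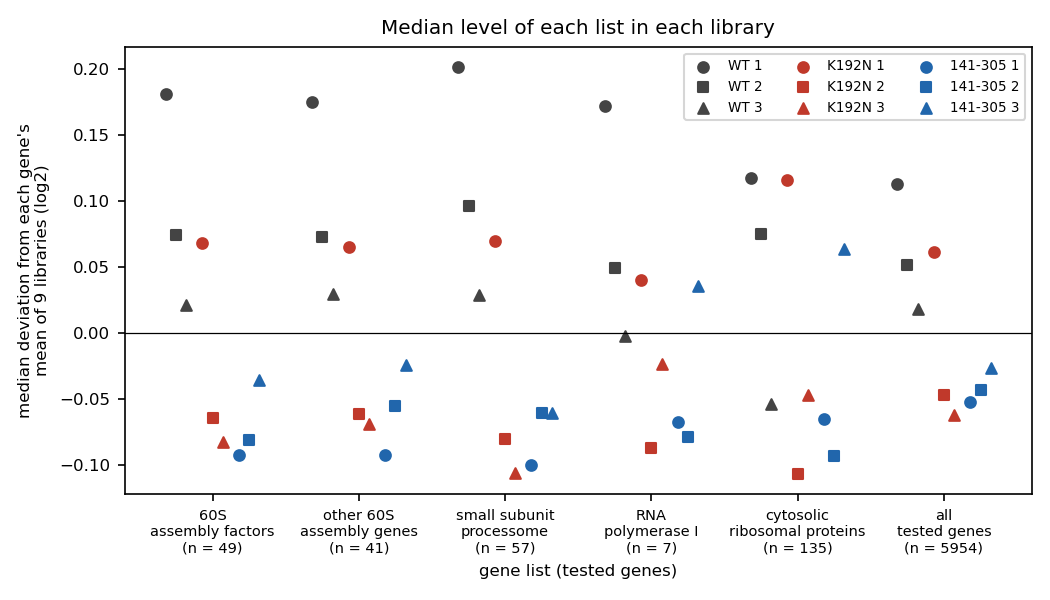
Median deviation of each gene list from the genes' own means over the 9 libraries (vertical, log2) in each library (symbols; WT grey, *spn1* K192N red, *spn1* 141-305 blue). For the 49 assembly factors WT 1, 2 and 3 stand at 0.18, 0.074 and 0.021, *spn1* K192N at 0.068, −0.065 and −0.082, and *spn1* 141-305 at −0.092, −0.081 and −0.035, so *spn1* K192N 1 lies among the WT libraries.

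*AFG2*, chosen after its values were seen, fell furthest of these 60S genes. It encodes the AAA ATPase, also called Drg1, that releases Rlp24 from the particle in the cytoplasm. It had rlog values of 11.11, 11.07 and 10.96 in WT, 10.72, 10.43 and 10.60 in *spn1* K192N and 10.42, 10.47 and 10.43 in *spn1* 141-305, so that no mutant library reached the WT range. The differences were −0.46 in *spn1* K192N (limma adjusted p = 0.000314) and −0.60 in *spn1* 141-305 (limma adjusted p = 7.22e-06), and both stayed called in every alternative run for it, each library left out included. Between the mutants the difference of −0.14 did not pass (limma adjusted p = 0.475). *RLP24*, its substrate, had differences of −0.09 and −0.05. *EFL1*, a cytoplasmic GTPase that helps to release Tif6 and was also chosen after its values were seen, fell in *spn1* 141-305 by 0.32 on the log2 scale (limma adjusted p = 0.00327).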

How the data were processed

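The authors quantified poly-A RNA-seq reads with Salmon 1.9 against the cDNA of *S. cerevisiae* and *S. pombe* (the 2 genomes serving as decoys), and scaled libraries in DESeq2 1.30.1 (R 4.0.3) by spike-in size factors. The matrix the authors deposited has log2 values from the rlog function of DESeq2. From the deposited comparison tables, only the mean scaled signal over the 9 libraries was read, and their fold changes and p-values were not used. Chromatin samples of the series were not analysed here. Libraries were assigned to genotypes by their labels.

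Genes were annotated with RefSeq's R64 annotation, the build of the files, which matched 5896 of 6577 identifiers, and 216 genes stand at 0 in all libraries. limma 3.58.1 (R 4.3.3) was fitted to the rlog values of the 5954 genes with a mean of at least log2(10), with a mean for each genotype and a trended prior variance, two-sided, with Benjamini-Hochberg adjustment over all of them and calls at an adjusted p below 0.05. Promoters ran from 250 bases before to 50 after the annotated gene start. Other steps used Python 3.11.15. The fit was tested on simulated data.

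The genes and lists were chosen with earlier results of these data known. Library values were given for *MDN1*, for the members with the lowest and highest difference in *spn1* 141-305 in each role and for called members, up to 10 per comparison. *NSA1*, and *TIF6* by its range, were added after values were seen. The alternatives changed the filter, the scaling, the prior variance, the libraries fitted, a block for replicate number, the calling threshold and each library left out.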

Additional observations from a re-analysis of the deposited data

How the results depend on the processing

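The count of 10 assembly factors lower in *spn1* 141-305 became 6 with centred libraries (8.3% of all genes called), 23 with only the 2 genotypes compared in the fit (34.9%) and 1 (*DBP7*) at an adjusted p below 0.01 (6.79%), and ranged from 0 to 24 with each library left out. Over all genes, centring changed the calls from 1120 lower and 27 higher to 494 and 189 in *spn1* 141-305, and from 286 and 24 to 195 and 77 in *spn1* K192N. The count of 0 lower in *spn1* K192N ranged from 0 to 24 with each library left out. No assembly factor was called higher under any alternative, and 0 were called between the mutants. Centring took the assembly factors above 0 from 1 to 9 in *spn1* K192N and from 0 to 8 in *spn1* 141-305. Among the genes given library by library it turned the direction of *NOP16* in *spn1* K192N (0.017) and of *NOP15* (0.048), *RPF1* (0.076), *RLP24* (0.056) and *ALB1* (0.021) in *spn1* 141-305, none of them called. With each library left out, the difference in *spn1* 141-305 ranged from −0.115 to 0.0065 for *NOP15* and from −0.061 to 0.0086 for *RPF1*, above 0 only without WT library 1. Searching only the bases before the start, 43 promoters held PAC, 45 RRPE and 39 both.

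Libraries with the same replicate number did not deviate together in every pair (r from −0.28 to 0.25 across genes), and not every library correlated best with its own number. The deviations within a genotype sum to 0, so these values cannot tell whether libraries of equal number were handled together. The labels do not say so either. With the replicate block 1 gene (*NSA1*) was called lower in *spn1* K192N (7.88% of all genes) and 15 in *spn1* 141-305 (23.8%).

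The rlog scale shrinks differences and keeps no depth, so counting error could not be given, and with 3 libraries per genotype the calls move with WT library 1 and *spn1* K192N library 1. The cause of the changes between settings was not tested.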
